A study of Mus musculus with 12 samples.

Results

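The genes described here encode the mitochondrial protein import machinery, measured by RNA sequencing of B220+ splenocytes, the spleen fraction that carries a B cell surface marker, from 12 mice. Members were taken by name: symbols beginning Timm or Tomm followed by a digit or the letter d, plus Pam16, Dnajc19, Grpel1, Hspa9, Samm50, Mtx1 and Mtx2, with names holding -ps left out and at least 120 reads summed over the 12 libraries. Of 33 symbols that matched, 31 met the minimum, out of 24421 genes in the files. Timm8a2, with 13 reads in all libraries together, and Tomm20l, with 0 reads, fell under it, and the member nearest above it was Tomm6os with 344 reads. All 31 members also passed the filter on low counts, so none was lost before testing.

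The mice were 4 to 5 weeks old and formed 4 groups of 3, each library holding the cells of 1 mouse. EuMyc Max KO mice carried the EuMyc transgene, a Myc gene under the enhancer of the immunoglobulin heavy chain locus and so active in the B lineage, together with conditional knockout of Max. EuMyc mice carried the transgene with Max WT, and these cells were premalignant per the series title. Max KO mice had the conditional knockout without the transgene, and WT mice had Max WT and no transgene. The driver of the conditional deletion is not given in the sources used here.

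Nearly all mitochondrial proteins are encoded in the nucleus, made in the cytosol and imported. As background, they are recognised and passed through the outer membrane by the translocase of the outer membrane (TOM). Barrel-shaped proteins are then placed in the outer membrane by the sorting and assembly machinery (SAM), carrier proteins are escorted by small TIM chaperones to TIM22 in the inner membrane, and proteins with a cleavable presequence pass TIM23 and are pulled into the matrix by the presequence translocase-associated motor (PAM). MYC is a transcription factor that binds DNA as a heterodimer with MAX, classically at the E-box CACGTG.

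The promoters of 4 members are shown as examples of windows with and without CACGTG. Timm8a1, Timm9 and Tomm20 hold it in the window shown, and Tomm5, the member with the highest fold change in EuMyc against WT, holds none. All 4 were among the 29 members higher in EuMyc than in WT, and a relation between the motif and the changes was not tested. Each is the RefSeq sequence (GRCm38.p6) from 250 bases before to 50 bases after the annotated start, read on the minus strand, 5′ to 3′. CACGTG is in capitals.
Timm8a1 (chrX:134541621-134541920): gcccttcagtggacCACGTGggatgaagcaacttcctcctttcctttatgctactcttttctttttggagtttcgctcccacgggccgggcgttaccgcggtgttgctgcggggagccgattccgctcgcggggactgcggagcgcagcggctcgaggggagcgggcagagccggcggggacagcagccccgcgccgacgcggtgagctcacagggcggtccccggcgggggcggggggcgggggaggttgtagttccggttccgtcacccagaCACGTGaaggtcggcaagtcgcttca
Timm9 (chr12:71136626-71136925): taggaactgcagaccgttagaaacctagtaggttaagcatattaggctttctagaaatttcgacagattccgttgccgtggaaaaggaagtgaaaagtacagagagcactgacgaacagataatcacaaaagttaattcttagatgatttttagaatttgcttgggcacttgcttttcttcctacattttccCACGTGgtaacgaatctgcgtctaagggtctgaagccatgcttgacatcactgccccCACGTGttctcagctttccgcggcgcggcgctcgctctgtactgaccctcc
Tomm20 (chr8:126945872-126946171): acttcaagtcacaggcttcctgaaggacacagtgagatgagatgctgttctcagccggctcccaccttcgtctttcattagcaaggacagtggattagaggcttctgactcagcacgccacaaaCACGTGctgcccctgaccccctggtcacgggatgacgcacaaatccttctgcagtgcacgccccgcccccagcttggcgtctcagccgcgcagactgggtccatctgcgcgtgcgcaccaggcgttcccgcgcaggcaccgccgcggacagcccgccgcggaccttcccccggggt
Tomm5 (chr4:45108064-45108363): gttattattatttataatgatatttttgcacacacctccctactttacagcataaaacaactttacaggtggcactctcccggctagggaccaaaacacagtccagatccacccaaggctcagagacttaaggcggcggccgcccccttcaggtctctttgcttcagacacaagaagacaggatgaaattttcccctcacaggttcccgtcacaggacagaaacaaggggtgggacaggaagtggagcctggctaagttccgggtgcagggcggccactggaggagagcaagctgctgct

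The first CACGTG base lay at -236 and 24 in Timm8a1, at -58 and -1 in Timm9 and at -126 in Tomm20, counting the start base as 0. CACGTG is its own reverse complement, so 1 search covers both strands. Among the 27 members with a RefSeq promoter in the table used, 5 held it (18.5%), the others being Timm10 and Tomm6os, against 8.09% of all 27025 genes in that table. CCGGAAG, a core bound by ETS family factors, was searched on both strands. It stood in 11 of the 27 members (40.7%), against 9.93% of all genes. These include Timm10, Timm23, Tomm22 and Tomm70a, and also Tomm34 and Timmdc1, which were not called in EuMyc against WT. By their letters the 2 motifs cannot overlap each other. The median log2 fold change in EuMyc against WT was 1.22 for the 5 members with CACGTG and 0.80 for the 22 without, and both ranges, 0.81 to 1.88 and 0.07 to 1.92, overlapped. A match describes letters in the window and was not tested as a binding site. The 27025 genes include genes not tested here, and the shares were not adjusted for expression or base composition. Hspa9, Timm21, Tomm40l and Tomm7 were not matched.

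Libraries held 14973332 to 21671601 reads assigned to genes. Myc averaged 522 ± 39.5 CPM (reads relative to the library size scaled by the TMM method of edgeR) in EuMyc Max KO libraries and 1010.4 ± 37.1 CPM in EuMyc libraries (SD, n = 3 each), a log2 fold change of -0.95 ± 0.08 (SE, edgeR quasi-likelihood adjusted p = 2.5e-07). It averaged 126 ± 8.37 CPM in Max KO libraries and 106 ± 9.37 CPM in WT libraries. This log2 fold change of 0.26 ± 0.08 was called higher (SE, edgeR quasi-likelihood adjusted p = 0.0483). Max, counted over the whole gene, was 105 ± 3.15 CPM in EuMyc Max KO libraries against 128 ± 1.87 CPM in EuMyc libraries, a log2 fold change of -0.29 ± 0.08 (SE, edgeR quasi-likelihood adjusted p = 0.00462). In Max KO libraries it was 101 ± 1.28 CPM against 119 ± 16.8 CPM in WT libraries, which did not pass the test (edgeR quasi-likelihood adjusted p = 0.0623), and these counts do not show which exons the reads came from. B cell markers such as Cd79a and Cd79b were abundant in every library, and the summed CPM of 8 listed markers was 6427 to 7896 in EuMyc Max KO, 3696 to 4408 in EuMyc, 7916 to 8773 in Max KO and 9497 to 10418 in WT libraries. All 8 were called lower in EuMyc than in WT.

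In EuMyc B220+ cells the import machinery was raised almost throughout. Of 31 members, 29 were higher in EuMyc than in WT libraries and 0 were lower, at a Benjamini-Hochberg adjusted p under 0.05 over 12878 genes in the quasi-likelihood test of edgeR, against 36.7% of all genes called higher and 34.9% called lower. The median log2 fold change of the members was 0.89, with a range of 0.07 to 1.92, and that of all tested genes was 0.012. The summed CPM of the members was 2882, 3108 and 3003 in EuMyc libraries, against 1631, 1467 and 1540.1 in WT libraries. In 29 members the lowest EuMyc library lay above the highest WT library, a separation that held for 39.7% of all genes. Called members changed over 1.5-fold in 26 cases, over 2-fold in 12 and over 3-fold in 2. The share of reads outside genes also moved with the groups, at 15.0% to 18.5% in EuMyc Max KO, 12.5% to 13.7% in EuMyc, 19.6% to 20.3% in Max KO and 16.8% to 20.3% in WT libraries, with the 3 EuMyc libraries lowest, and reads without a unique alignment were most frequent in EuMyc Max KO 1 and EuMyc Max KO 2 (27.9% and 27.0%, against 20.3% to 23.4% elsewhere). Their part in the results was not tested. Fold changes are relative to all RNA sequenced in a library, and fewer cells of a type and less RNA per cell cannot be told apart in these bulk samples.

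EuMyc Max KO cells had import gene levels far below those of EuMyc cells. In EuMyc Max KO against EuMyc, 30 members were lower and 0 higher, against 36.1% of all genes called lower and 37.6% called higher by the same test. The median log2 fold change was -0.91, with a range of -1.77 to -0.16, and that of all genes was 0.028. The 3 EuMyc Max KO libraries had summed CPM of 1536, 1528 and 1607, all below the 3 EuMyc libraries and within the WT range. For 29 members the highest EuMyc Max KO library lay below the lowest EuMyc library, as it did for 37.9% of all genes. This comparison and that of EuMyc with WT share the EuMyc libraries, so their opposite signs are not independent.

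**Figure D1:**
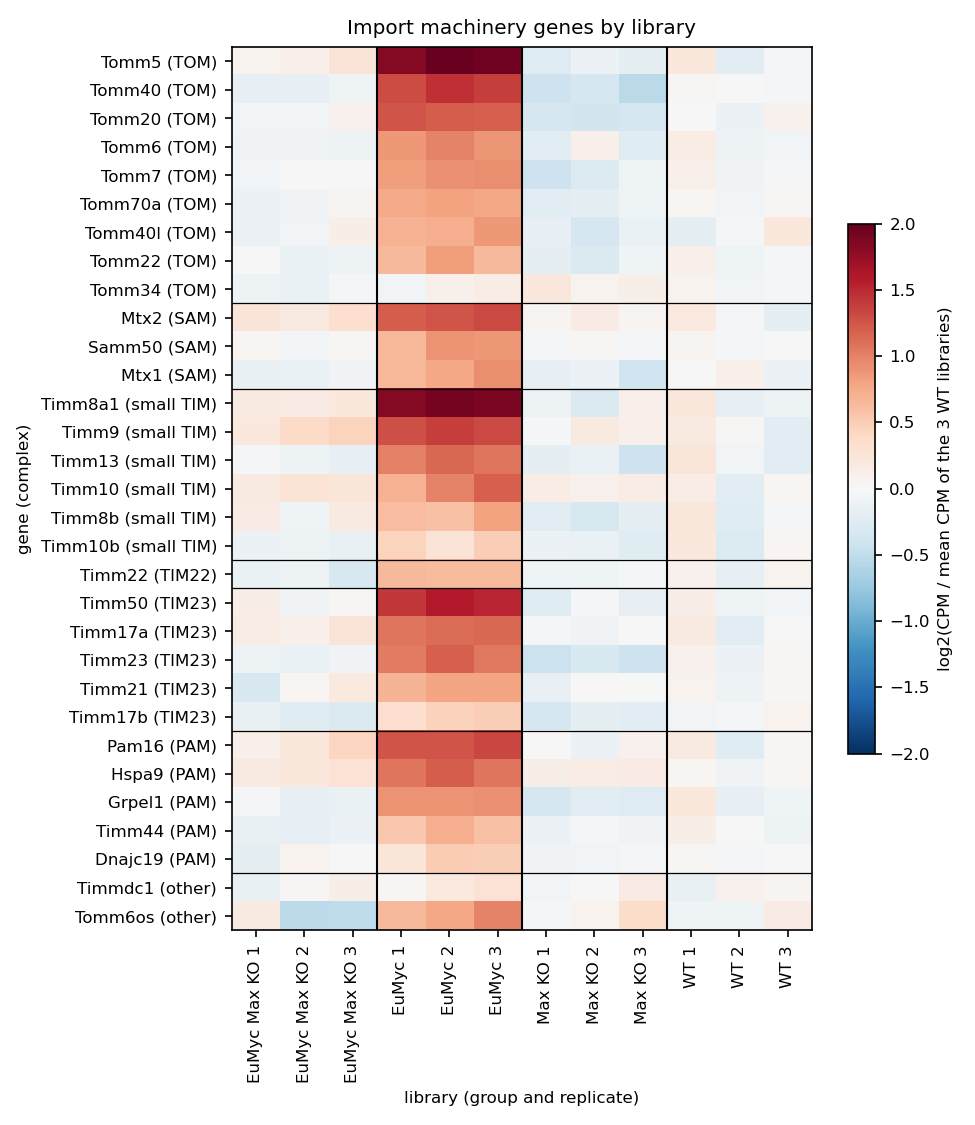
Log2 ratio of the CPM of each of the 31 members (rows, grouped by complex) in each library (columns) to the mean CPM of the 3 WT libraries. The 3 EuMyc columns are red for nearly every gene, Tomm5, Timm8a1, Timm50 and Tomm40 the deepest, while Tomm34 and Timmdc1 stay pale.

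Markers listed for other cell types moved with the groups too. Summed T cell markers were 166 to 176 CPM in EuMyc Max KO and 30.5 to 32.1 CPM in EuMyc libraries, against 169.8 to 191 CPM in Max KO and 112 to 136 CPM in WT libraries, and 9 of 9 tested markers were higher in EuMyc Max KO than in EuMyc. Monocyte and macrophage markers summed to 2708 to 5356 CPM in EuMyc Max KO, 792 to 1034 CPM in EuMyc, 2707 to 3771 CPM in Max KO and 1714 to 2139 CPM in WT libraries, with 12 of 12 higher in EuMyc Max KO than in EuMyc. NK cell markers summed to 33.2 to 44.6 CPM in EuMyc Max KO, 2.87 to 7.37 CPM in EuMyc, 31.5 to 46.6 CPM in Max KO and 17.2 to 29.4 CPM in WT libraries, with 7 of 7 higher in EuMyc Max KO than in EuMyc. Neutrophil markers summed to 32.9 to 276 CPM in EuMyc Max KO, 12.3 to 16.8 CPM in EuMyc, 23.9 to 162 CPM in Max KO and 10.7 to 20.2 CPM in WT libraries. Plasma cell markers summed to 416 to 861 CPM in EuMyc Max KO, 141 to 301 CPM in EuMyc, 212 to 333 CPM in Max KO and 686 to 1387 CPM in WT libraries. Of 5 tested, 3 were higher and 0 lower in EuMyc Max KO than in EuMyc. Jchain alone averaged 420 CPM in EuMyc Max KO, 98.3 CPM in EuMyc, 122 CPM in Max KO and 861 CPM in WT libraries. The range for plasmacytoid dendritic cell markers was 793 to 856 CPM in EuMyc Max KO, 327 to 369 CPM in EuMyc, 924 to 1201 CPM in Max KO and 835 to 922 CPM in WT libraries. Of 7 tested, 6 were higher and 1, Cox6a2, was lower in EuMyc Max KO than in EuMyc. Irf8 alone averaged 541 CPM in EuMyc Max KO, 212 CPM in EuMyc, 622 CPM in Max KO and 560 CPM in WT libraries. Erythroid markers varied widely among replicates, at 5528, 3705 and 978 CPM in EuMyc Max KO, 419, 326 and 414 CPM in EuMyc, 184, 427 and 147 CPM in Max KO and 151, 291 and 65.2 CPM in WT libraries, with the globin gene Hbb-bt at 0 reads in every library. The EuMyc Max KO libraries with these erythroid sums of 5528, 3705 and 978 CPM had import sums of 1536, 1528 and 1607 CPM, and leaving out any 1 library left 29 or 30 members lower in EuMyc Max KO than in EuMyc. The part of other cell types in the result was not tested.

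**Figure D2:**
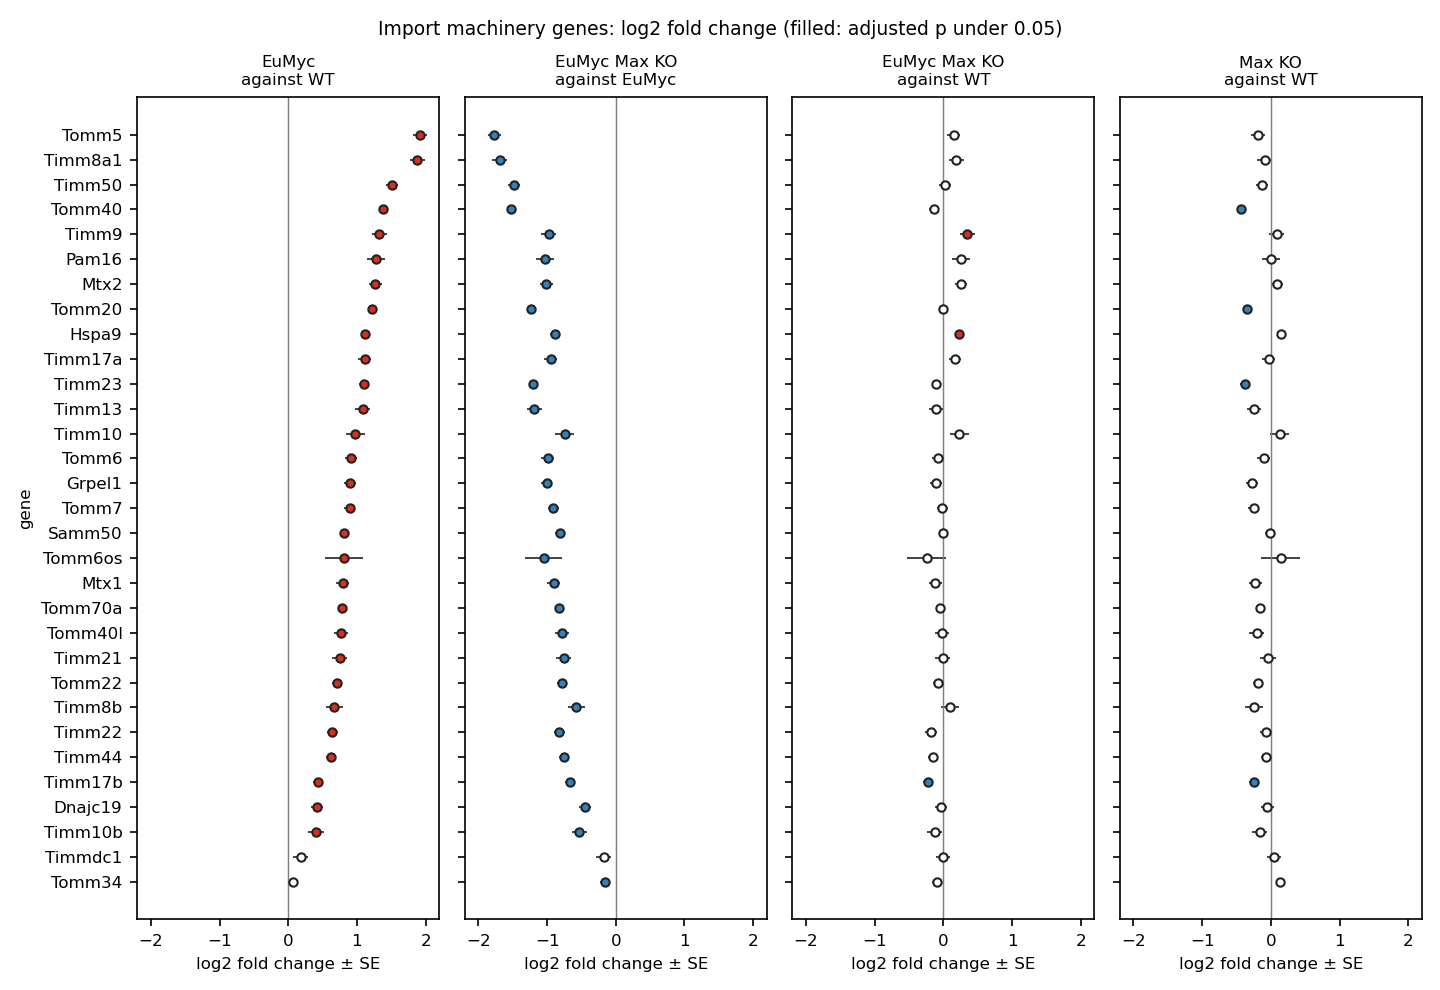
Log2 fold change ± SE of the 31 members in 4 comparisons, ordered by EuMyc against WT. Red points were higher and blue points lower at an adjusted p under 0.05, and open points were not called. The first panel lies right of 0, the second left of it, and the other 2 cluster around 0.

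All 8 TOM genes other than Tomm34 were higher in EuMyc than in WT and lower in EuMyc Max KO than in EuMyc. Tomm40, the protein-conducting channel, had 48.9, 48.95 and 51.4 CPM in EuMyc Max KO libraries, against 135, 152 and 143 CPM in EuMyc libraries. It had 41.3, 43.2 and 37.5 CPM in Max KO libraries, against 55.8, 55.3 and 53.3 CPM in WT libraries. The EuMyc libraries stood clear of all others, with a log2 fold change of 1.38 ± 0.07 (SE) in EuMyc against WT and -1.52 ± 0.07 in EuMyc Max KO against EuMyc (edgeR quasi-likelihood adjusted p = 1.7e-09 and 1.12e-09). Tomm5, a small subunit of the channel complex, had 29.4, 30.1 and 33.4 CPM in EuMyc Max KO libraries, against 99.7, 109.8 and 107 CPM in EuMyc libraries. It had 23.3, 25.9 and 24.6 CPM in Max KO libraries, against 32.4, 24.2 and 27.3 CPM in WT libraries, and these 2 groups overlapped. Tomm5 changed by 1.92 ± 0.10 in EuMyc against WT and by -1.77 ± 0.10 in EuMyc Max KO against EuMyc on the log2 scale, the highest and the lowest values of any member, with edgeR quasi-likelihood adjusted p of 3.07e-09 and 6.66e-09.

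Tomm20, the receptor for presequences, had 100.4, 99.7 and 111 CPM in EuMyc Max KO libraries, against 249.8, 241 and 238 CPM in EuMyc libraries. Its values were 82.4, 80.3 and 82.7 CPM in Max KO libraries, against 105, 96.05 and 111 CPM in WT libraries. EuMyc libraries were again above all others and the 3 Max KO libraries were the lowest, with log2 fold changes of 1.22 ± 0.06 in EuMyc against WT and -1.23 ± 0.06 in EuMyc Max KO against EuMyc. Tomm70a, the receptor for carrier precursors, had 122, 126 and 139 CPM in EuMyc Max KO libraries, against 226, 232 and 228 CPM in EuMyc libraries. It had 114, 117 and 126 CPM in Max KO libraries, against 136, 128 and 135 CPM in WT libraries. It rose by 0.78 ± 0.06 in EuMyc against WT and changed by -0.82 ± 0.06 in EuMyc Max KO against EuMyc on the log2 scale (edgeR quasi-likelihood adjusted p = 8.13e-08 and 5.74e-08).

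The central receptor Tomm22 averaged 149 ± 11.2 CPM in EuMyc libraries and 91.3 ± 5.72 CPM in WT libraries (SD, n = 3 each), a log2 fold change of 0.71 ± 0.07. Small subunits Tomm6 and Tomm7 changed alike, by 0.91 ± 0.09 and 0.89 ± 0.08 in EuMyc against WT and by -0.99 ± 0.09 and -0.91 ± 0.08 in EuMyc Max KO against EuMyc. Tomm40l, a relative of the channel, had 25.97, 27.1 and 30.6 CPM in EuMyc Max KO libraries, against 45.9, 46.8 and 51.7 CPM in EuMyc libraries. Its values were 25.1, 22.4 and 25.9 CPM in Max KO libraries, against 24.6, 27.7 and 32.6 CPM in WT libraries, and these 2 groups overlapped. It changed by 0.77 ± 0.11 and -0.79 ± 0.11 in the same comparisons, and Tomm22 by -0.79 ± 0.07 in the second. All 4 were called in both. Tomm34 stood apart: it is a cytosolic co-chaperone that carries the family name without being a subunit of the membrane complex. Tomm34 had 107, 104 and 111 CPM in EuMyc Max KO libraries, against 109.9, 123 and 127 CPM in EuMyc libraries, and these groups overlapped. The other groups had 135, 119.8 and 124 CPM in Max KO libraries, against 120.4, 111 and 113 CPM in WT libraries. Its log2 fold change was 0.07 ± 0.07 in EuMyc against WT, which was not called, and -0.16 ± 0.07 in EuMyc Max KO against EuMyc (edgeR quasi-likelihood adjusted p = 0.38 and 0.0402). The second call was lost in 10 of 18 alternatives, among them DESeq2, the replicate block and 6 that left out 1 library each (WT 3, Max KO 3, EuMyc 2, EuMyc 3, EuMyc Max KO 1 or EuMyc Max KO 2), with adjusted p of up to 0.551.

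**Figure D3:**
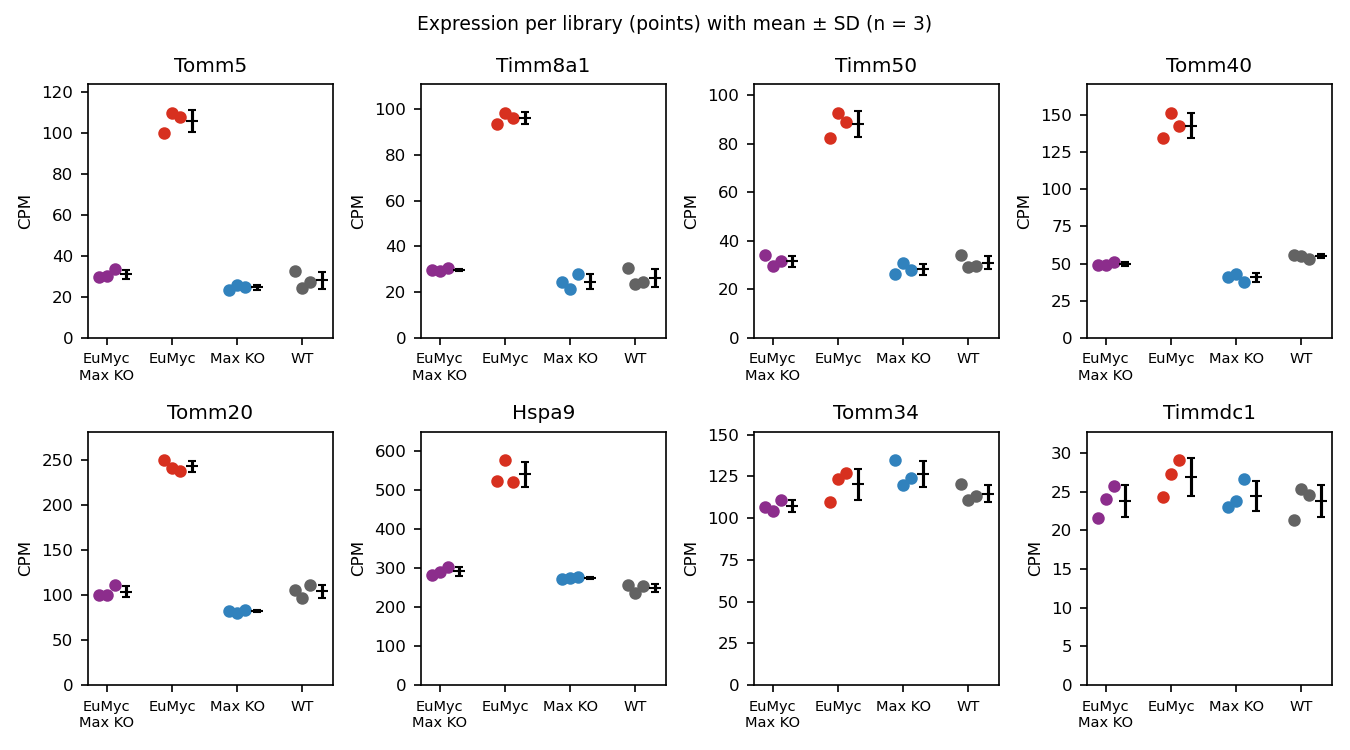
CPM of 8 members in the 12 libraries (points), with the mean ± SD of each group (n = 3) beside them. In Tomm5, Timm8a1, Timm50, Tomm40, Tomm20 and Hspa9 the EuMyc points lie far above the other 3 groups. In Tomm34 and Timmdc1 the range of the EuMyc points overlaps those of the other groups.

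All 3 SAM genes were higher in EuMyc than in WT and lower in EuMyc Max KO than in EuMyc. Samm50, the core subunit that inserts barrel proteins, averaged 97.3 ± 3.50 CPM in EuMyc Max KO, 172 ± 14.6 CPM in EuMyc, 96.2 ± 2.64 CPM in Max KO and 97.3 ± 3.68 CPM in WT libraries (SD, n = 3 each). The metaxins Mtx1 and Mtx2, peripheral subunits of SAM, differed in size of change. Mtx2 had 25.3, 24.1 and 26.8 CPM in EuMyc Max KO libraries, against 49.4, 51.03 and 53.1 CPM in EuMyc libraries. It had 22.1, 23.7 and 22.00 CPM in Max KO libraries, against 24.4, 20.6 and 18.8 CPM in WT libraries. Mtx1 had 24.7, 25.00 and 26.05 CPM in EuMyc Max KO libraries, against 43.3, 46.8 and 51.9 CPM in EuMyc libraries. Its other values were 24.4, 25.2 and 20.7 CPM in Max KO libraries, against 27.6, 29.3 and 25.2 CPM in WT libraries. On the log2 scale Mtx2 rose by 1.27 ± 0.09 and Mtx1 by 0.79 ± 0.09 in EuMyc against WT (edgeR quasi-likelihood adjusted p = 5.57e-08 and 5.73e-06).

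The 6 small TIM chaperones, which shield hydrophobic proteins on the way through the intermembrane space, were all higher in EuMyc than in WT and all lower in EuMyc Max KO than in EuMyc. Timm8a1, partner of Timm13 in one chaperone complex, had 29.6, 29.3 and 30.4 CPM in EuMyc Max KO libraries, against 93.5, 98.6 and 96.3 CPM in EuMyc libraries. It had 24.4, 21.3 and 28.1 CPM in Max KO libraries, against 30.7, 23.5 and 24.4 CPM in WT libraries. All 3 EuMyc libraries were more than 3-fold above every other library, and the log2 fold change was 1.88 ± 0.11 in EuMyc against WT and -1.69 ± 0.11 in EuMyc Max KO against EuMyc (edgeR quasi-likelihood adjusted p = 7.96e-09 and 2.14e-08). Timm8b, its relative, had 16.8, 14.1 and 16.9 CPM in EuMyc Max KO libraries, against 22.97, 22.4 and 26.02 CPM in EuMyc libraries. It had 12.8, 12.02 and 13.1 CPM in Max KO libraries, against 17.5, 12.6 and 14.7 CPM in WT libraries. Its log2 fold changes of 0.67 ± 0.13 and -0.58 ± 0.13 in these comparisons were smaller.

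Timm13 averaged 41.5 ± 1.76 CPM in EuMyc Max KO and 94.3 ± 4.73 CPM in EuMyc libraries, with 37.6 ± 3.67 CPM in Max KO and 44.5 ± 7.29 CPM in WT libraries (SD, n = 3 each). Timm9 and Timm10 form the other intermembrane chaperone. Timm9 had 16.2, 18.2 and 18.98 CPM in EuMyc Max KO libraries, against 34.1, 36.4 and 34.7 CPM in EuMyc libraries. It had 13.7, 15.8 and 14.9 CPM in Max KO libraries, against 15.8, 14.2 and 11.9 CPM in WT libraries, so that its EuMyc Max KO libraries lay above every WT library. Timm10 averaged 21.7 ± 3.76 CPM in EuMyc and 11.02 ± 1.41 CPM in WT libraries. On the log2 scale Timm9 rose by 1.33 ± 0.11 and Timm10 by 0.98 ± 0.13 in EuMyc against WT. Timm10b, which docks the chaperone on TIM22, had 21.6, 21.9 and 21.2 CPM in EuMyc Max KO libraries, against 31.9, 28.2 and 33.2 CPM in EuMyc libraries. It had 21.6, 21.5 and 19.9 CPM in Max KO libraries, against 27.2, 19.4 and 24.1 CPM in WT libraries. The change of Timm10b was the smallest of the 29 called in EuMyc against WT, 0.40 ± 0.11 (edgeR quasi-likelihood adjusted p = 0.00556). Timm22 itself, the carrier translocase, averaged 25.7 ± 2.03 CPM in EuMyc Max KO and 45.3 ± 0.142 CPM in EuMyc libraries, with 27.6 ± 0.415 CPM in Max KO and 29.04 ± 2.66 CPM in WT libraries. It changed by 0.64 ± 0.08 in EuMyc against WT and -0.82 ± 0.08 in EuMyc Max KO against EuMyc.

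All 5 TIM23 genes were higher in EuMyc than in WT and lower in EuMyc Max KO than in EuMyc. Timm50, the receptor that takes presequence proteins from TOM, had 33.9, 29.4 and 31.5 CPM in EuMyc Max KO libraries, against 82.5, 92.8 and 88.97 CPM in EuMyc libraries. It had 26.3, 30.6 and 27.8 CPM in Max KO libraries, against 34.04, 29.04 and 29.8 CPM in WT libraries. The EuMyc libraries were more than 2-fold above all others, with log2 fold changes of 1.51 ± 0.09 in EuMyc against WT and -1.48 ± 0.09 in EuMyc Max KO against EuMyc (edgeR quasi-likelihood adjusted p = 8.23e-09 and 1.17e-08). Timm23, the channel-forming subunit, had 64.7, 63.6 and 66.6 CPM in EuMyc Max KO libraries, against 143, 159 and 145 CPM in EuMyc libraries. It had 51.9, 56.8 and 52.6 CPM in Max KO libraries, against 74.04, 64.4 and 70.9 CPM in WT libraries, with Max KO the lowest group. These values gave 1.10 ± 0.07 in EuMyc against WT and -1.20 ± 0.07 in EuMyc Max KO against EuMyc. Timm21, which links the inner complex to TOM, averaged 40.99 ± 1.70 CPM in EuMyc and 24.4 ± 1.44 CPM in WT libraries.

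Timm17a and Timm17b encode alternative partners of Timm23. Timm17a had 22.1, 21.5 and 23.9 CPM in EuMyc Max KO libraries, against 42.2, 43.4 and 44.4 CPM in EuMyc libraries. It had 19.6, 19.05 and 20.1 CPM in Max KO libraries, against 22.6, 17.3 and 20.1 CPM in WT libraries. Timm17b had 29.7, 27.7 and 27.03 CPM in EuMyc Max KO libraries, against 41.8, 45.6 and 46.2 CPM in EuMyc libraries. Its remaining values were 26.3, 28.8 and 28.3 CPM in Max KO libraries, against 31.8, 32.5 and 34.6 CPM in WT libraries. Timm17a had a log2 fold change of 1.12 ± 0.09 in EuMyc against WT, while that of Timm17b was 0.43 ± 0.07 (edgeR quasi-likelihood adjusted p = 1.97e-07 and 0.000129).

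The 5 PAM genes followed the same course. Hspa9, the mitochondrial Hsp70 that pulls proteins into the matrix, had 282, 289 and 304 CPM in EuMyc Max KO libraries, against 523, 577 and 521 CPM in EuMyc libraries. It had 271, 274 and 278 CPM in Max KO libraries, against 255, 236 and 254 CPM in WT libraries. WT was the lowest group and Max KO lay just above it, with log2 fold changes of 1.12 ± 0.06 in EuMyc against WT and -0.89 ± 0.06 in EuMyc Max KO against EuMyc (edgeR quasi-likelihood adjusted p = 4.3e-09 and 3.4e-08). Grpel1, its nucleotide exchange factor, had 48.1, 44.02 and 45.2 CPM in EuMyc Max KO libraries, against 91.5, 91.6 and 92.9 CPM in EuMyc libraries. It had 38.96, 42.4 and 41.4 CPM in Max KO libraries, against 57.1, 44.2 and 46.7 CPM in WT libraries. Pam16, a regulator of the motor's J protein, averaged 22.6 ± 0.668 CPM in EuMyc and 9.29 ± 1.36 CPM in WT libraries, and Timm44, which tethers Hspa9 to the channel, averaged 84.6 ± 5.84 CPM and 55.2 ± 4.15 CPM (SD, n = 3 each). Dnajc19, a J protein of the inner membrane, had 20.4, 24.3 and 22.9 CPM in EuMyc Max KO libraries, against 27.4, 32.7 and 32.6 CPM in EuMyc libraries. It had 21.97, 22.4 and 22.6 CPM in Max KO libraries, against 23.5, 22.7 and 23.2 CPM in WT libraries, and its change of 0.42 ± 0.09 in EuMyc against WT was the smallest in the motor (edgeR quasi-likelihood adjusted p = 0.000947).

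Timmdc1 and Tomm6os match the names by spelling. Timmdc1 is an assembly factor of respiratory complex I. It had 21.5, 24.1 and 25.7 CPM in EuMyc Max KO libraries, against 24.3, 27.3 and 29.1 CPM in EuMyc libraries. The other groups had 22.98, 23.8 and 26.6 CPM in Max KO libraries, against 21.4, 25.3 and 24.5 CPM in WT libraries, so that all 4 groups overlapped, and its log2 fold changes of 0.18 ± 0.10 and -0.18 ± 0.10 were not called (edgeR quasi-likelihood adjusted p = 0.136 and 0.134). Tomm6os is annotated antisense to Tomm6, and without a stated strand setting the reads of both cannot be told apart. At 1.51, 0.932 and 0.936 CPM in EuMyc Max KO, 2.08, 2.29 and 2.66 CPM in EuMyc, 1.30, 1.41 and 1.71 CPM in Max KO and 1.26, 1.25 and 1.49 CPM in WT libraries it was the member with the fewest reads. Its call in EuMyc against WT was lost without WT 1, WT 2 or EuMyc 3 (edgeR quasi-likelihood adjusted p up to 0.0591). In the GENCODE vM21 annotation of mm10, 23 of the 31 members overlap another annotated gene, a limit on their counts as well.

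Without the transgene, the median change of the members that went with Max knockout was smaller in size than with it. In Max KO against WT, 4 of 31 were lower and 0 higher, against 7.74% of all genes called lower and 7.27% called higher, with a median log2 fold change of -0.11, a range of -0.43 to 0.14 and a median of -0.0032 over all genes. With 1 library left out, the 997 genes called lower over all genes ranged from 435 to 1305 and the 936 called higher from 384 to 1260. The count lower moved over 1.5 times without WT 1, Max KO 1 or Max KO 2, and the count higher without any WT library, Max KO 1 or Max KO 2. The 4 were Tomm40, the outer membrane channel (-0.43 ± 0.07), Timm23, the inner membrane channel (-0.38 ± 0.07), Tomm20 (-0.35 ± 0.06) and Timm17b (-0.25 ± 0.07), with edgeR quasi-likelihood adjusted p of 0.00167, 0.00379, 0.00401 and 0.0412. Tomm40, Timm23 and Tomm20 were called in all 18 alternatives. Timm17b was lost in 11, including the replicate block and those without WT 1, WT 2, WT 3, Max KO 1, Max KO 2, EuMyc 3 or EuMyc Max KO 2. For 10 members every Max KO library lay below every WT library, as for 20.1% of all genes. These include Grpel1 (-0.27 ± 0.09) and Tomm7 (-0.25 ± 0.08), which were not called (edgeR quasi-likelihood adjusted p = 0.0549 and 0.057). Grpel1, Tomm7 and Tomm70a were called lower with RLE size factors and with DESeq2, which each gave 7 lower members in place of 4. Hspa9 was the 1 member with every Max KO library above every WT library, at 0.14 ± 0.06, and was not called.

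The change that went with Max knockout differed in size between cells with and without the transgene. In the interaction, which subtracts the log2 change of Max KO against WT from that of EuMyc Max KO against EuMyc, 28 members were lower and 0 higher, against 27.9% of all genes called lower and 27.8% called higher. The median was -0.80, and the range -1.60 to -0.22. The interaction also holds the EuMyc and WT libraries, so it is not independent of the rise in EuMyc against WT. Timm8a1 (-1.60 ± 0.15), Tomm5 (-1.58 ± 0.14) and Timm50 (-1.34 ± 0.12) had the largest differences, and the 6 smallest p-values belonged to Hspa9, Tomm40, Tomm5, Timm50, Timm8a1 and Tomm20. Timm10b (-0.37 ± 0.16), Timm8b (-0.33 ± 0.18) and Timmdc1 (-0.22 ± 0.15) were not called, with edgeR quasi-likelihood adjusted p of 0.0648, 0.133 and 0.214.

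Most import genes in EuMyc Max KO cells were close to the level of WT cells. Myc averaged 522 CPM in these libraries, above the WT and below the EuMyc level, and the part of its level in the import values was not tested. In EuMyc Max KO against WT, 2 members were higher and 1 lower, against 17.0% of all genes called higher and 10.8% called lower, with a median log2 fold change of -0.02. The 1391 genes called lower over all genes ranged from 806 to 1704 with 1 library left out, and moved over 1.5 times without EuMyc Max KO 1 or EuMyc Max KO 2. In 29 of 31 members the 95% interval of the difference lay inside 1.5-fold in either direction, and the exceptions were Timm9, with an upper bound of 0.60, and Tomm6os, with a lower bound of -0.90. Hspa9 (0.23 ± 0.06) and Timm9 (0.35 ± 0.11) were the higher members and Timm17b (-0.23 ± 0.07) the lower one, with edgeR quasi-likelihood adjusted p of 0.0132, 0.0318 and 0.0352. Hspa9 was lost without WT 2 or WT 3, Timm9 without WT 2, WT 3, Max KO 3, EuMyc 2, EuMyc Max KO 2 or EuMyc Max KO 3, and Timm17b without WT 3, EuMyc Max KO 2 or EuMyc Max KO 3 and under the replicate block.

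Set against Max KO, EuMyc Max KO libraries had 4 members higher and 1 lower, against 10.7% of all genes called higher and 3.69% called lower, with a median of 0.12. These shares were unstable: with 1 library left out, the 1378 genes called higher ranged from 887 to 1815 and the 475 called lower from 123 to 1007. The count higher moved over 1.5 times without Max KO 1, Max KO 3 or EuMyc Max KO 2, and the count lower without any of the 6 libraries compared. Tomm20 (0.34 ± 0.06), Tomm5 (0.33 ± 0.10), Tomm40 (0.29 ± 0.07) and Timm23 (0.27 ± 0.07) were higher, and Tomm34 (-0.24 ± 0.07) was lower, with edgeR quasi-likelihood adjusted p of 0.00318, 0.0404, 0.0119, 0.0167 and 0.0326. In 15 members every EuMyc Max KO library lay above every Max KO library, as in 17.2% of all genes. Of these calls Tomm20 held in all 18 alternatives. Tomm40 was lost without Max KO 3, Timm23 without Max KO 1 or Max KO 3, and Tomm34 without Max KO 1, Max KO 3, EuMyc Max KO 1 or EuMyc Max KO 2. Tomm5 was lost in 12 alternatives, among them the replicate block and every removal of 1 library other than WT 1 or WT 2.

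Within a library, the read ratio of 2 related genes does not depend on library scaling, and 6 pairs were compared. These reads are not divided by gene length, so a ratio was compared between groups and does not show which gene of a pair has the higher level. The log2 ratio of Timm8a1 to Timm8b was 2.02 ± 0.12 in EuMyc libraries, against 0.81 ± 0.08 in WT libraries (SD, n = 3 each), a difference of 1.21. Timm17a and Timm17b had a log2 ratio of -0.04 ± 0.04 in EuMyc libraries, against -0.73 ± 0.21 in WT libraries, so that the ratio was higher in EuMyc. The ratio of Tomm40 to Tomm40l was 1.57 ± 0.12 in EuMyc libraries, against 0.96 ± 0.24 in WT libraries. Grpel1 over Grpel2, a second mitochondrial exchange factor, was 1.07 ± 0.0062 in EuMyc libraries, against -0.30 ± 0.21 in WT libraries, the widest shift. Mtx1 over Mtx2 moved the other way, to -0.12 ± 0.08 in EuMyc libraries against 0.37 ± 0.17 in WT libraries. For these 5 pairs the EuMyc and WT libraries did not overlap, and each reached p = 0.1, the smallest an exact two-sided permutation test of 3 against 3 can give (0.12 after adjustment over the 6 pairs). Dnajc19 over Dnajc15, a related J protein, was 0.61 ± 0.15 in EuMyc libraries and 0.72 ± 0.07 in WT libraries, and overlapped (p = 0.5, exact permutation test).

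In EuMyc Max KO against EuMyc, 4 of these log2 ratios were lower without overlap: Grpel1/Grpel2 by a difference of -1.48, Timm8a1/Timm8b by -1.11, Tomm40/Tomm40l by -0.73 and Timm17a/Timm17b by -0.29 (p = 0.1 each, exact permutation test). The Timm17a/Timm17b ratio of -0.33 ± 0.13 in EuMyc Max KO libraries was still above every WT library, and the Mtx1/Mtx2 ratio of -0.01 ± 0.05 was still below every WT library. Max KO and WT libraries overlapped in 5 of 6 pairs, the exception being Mtx1/Mtx2 with a difference of -0.32.

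**Figure D4:**
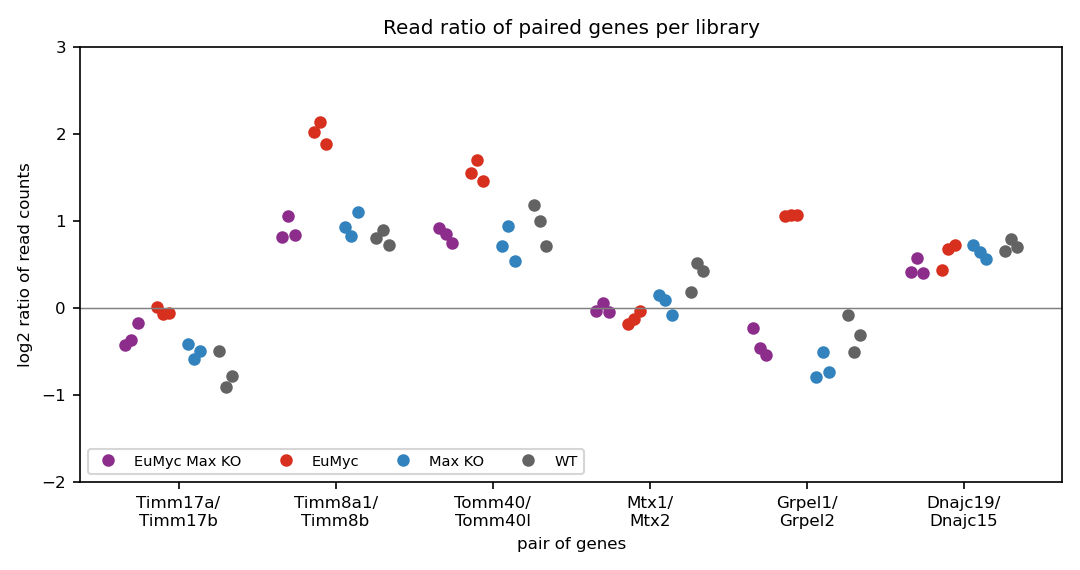
Log2 ratio of read counts of 6 pairs of genes in each library, by group. EuMyc points stand above WT points in Timm17a/Timm17b, Timm8a1/Timm8b, Tomm40/Tomm40l and Grpel1/Grpel2 and below them in Mtx1/Mtx2. In Dnajc19/Dnajc15 the ranges overlap.

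Levels between genes were compared per kilobase of annotated exon (CPM per kb). In EuMyc libraries Hspa9 and Tomm5 led, at 125 ± 7.40 and 122 ± 6.06 CPM per kb (SD, n = 3 each), and did not differ beyond their spread. Tomm22, Timm23, Tomm6 and Tomm7 came next, at 90.5 ± 6.77, 83.5 ± 4.80, 80.6 ± 3.60 and 76.0 ± 2.56 CPM per kb. In WT libraries Hspa9 and Tomm22 led, at 57.7 ± 2.57 and 55.3 ± 3.46 CPM per kb, while Tomm5 was at 32.2 ± 4.75 CPM per kb, below every library of Tomm6 and Tomm7. Tomm5 thus stood at the top in EuMyc cells and lower among the TOM subunits in WT cells. Among protein-coding members Timm17a was near the bottom, at 5.49 ± 0.142 CPM per kb in EuMyc and 2.53 ± 0.336 CPM per kb in WT libraries. The length is the union of all annotated exons, so genes with long, rarely used exons are understated.

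The members did not move alone. Import partners outside the member list, such as processing peptidases and cristae-organising proteins, numbered 26. Of these, 22 were higher and 2 lower in EuMyc than in WT, with a median log2 fold change of 0.70. The shares over all genes were 36.7% and 34.9%. In EuMyc Max KO against EuMyc, 22 partners were lower and 2 higher, against 36.1% and 37.6% of all genes. By smallest p in EuMyc against WT, the leading genes were Immt and Chchd10 (0.85 ± 0.05 and 1.62 ± 0.11), Dnajc11 (0.98 ± 0.08) and Pmpca (0.67 ± 0.06). Immt is the central protein of cristae junctions, and Pmpca is a subunit of the peptidase that removes presequences after import. In EuMyc Max KO against EuMyc, Immt changed by -0.77 ± 0.05 and Pmpca by -0.70 ± 0.06. Grpel2 and Immp2l, a subunit of the inner membrane peptidase, were the 2 lower genes and are named after their values were seen. Grpel2 averaged 43.9 ± 0.228 CPM in EuMyc libraries and 60.4 ± 2.45 CPM in WT libraries, and Immp2l averaged 4.30 ± 0.439 CPM in EuMyc and 7.10 ± 1.63 CPM in WT libraries (SD, n = 3 each). They were also the 2 that were higher in EuMyc Max KO than in EuMyc, by log2 fold changes of 0.47 and 0.51.

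A list of mitochondrial chaperones and proteases, with the scaffold genes Phb and Phb2, had 11 of 13 genes higher in EuMyc than in WT. In EuMyc Max KO against EuMyc, 12 of 13 were lower. Over all genes 36.7% were called higher in EuMyc against WT and 36.1% lower in EuMyc Max KO against EuMyc. Hspd1, the mitochondrial Hsp60, averaged 232 ± 5.57 CPM in EuMyc Max KO and 845 ± 86.6 CPM in EuMyc libraries, with 167 ± 7.08 CPM in Max KO and 212 ± 20.8 CPM in WT libraries (SD, n = 3 each). In EuMyc against WT, Phb, a scaffold protein of the inner membrane, rose by 1.36 ± 0.06 on the log2 scale and Hspd1 by 1.996 ± 0.087. Mitochondrial ribosomal proteins, all of them imported, had 75 of 77 genes higher in EuMyc than in WT (median 0.93) and 76 lower in EuMyc Max KO than in EuMyc (median -0.91). Nuclear-encoded subunits of oxidative phosphorylation had 78 of 80 higher and 2 lower (median 0.90), and then 76 lower and 2 higher (median -0.91). These medians stood beside 0.89 and -0.91 for the import machinery. Of 14 other mitochondrial genes, 11 were higher and 1 lower in EuMyc than in WT (median 0.61). Organelle mass itself was not measured.

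Cell cycle genes took another course. All 26 were higher in EuMyc than in WT (median 3.40) and all 26 lower in EuMyc Max KO than in EuMyc (median -1.66). However, 24 remained higher in EuMyc Max KO than in WT (median 1.46), against 2 of 31 import genes and 17.0% of all genes. The summed CPM of the cell cycle genes was 4567, 3519 and 2017 in EuMyc Max KO libraries, 9727 to 11139 in EuMyc, 841 to 908 in Max KO and 1286 to 1364 in WT libraries. The EuMyc Max KO library with the lowest cell cycle sum had the highest import sum, 1607 CPM. In Max KO against WT, 10 of 26 cell cycle genes, 26 of 80 oxidative phosphorylation genes and 11 of 77 mitochondrial ribosomal genes were lower. None of these were higher. Over all genes 7.74% were called lower and 7.27% higher, shares that moved widely with 1 library left out, as given above. Whether proliferation accounts for any part of the import values was not tested.

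**Figure D5:**
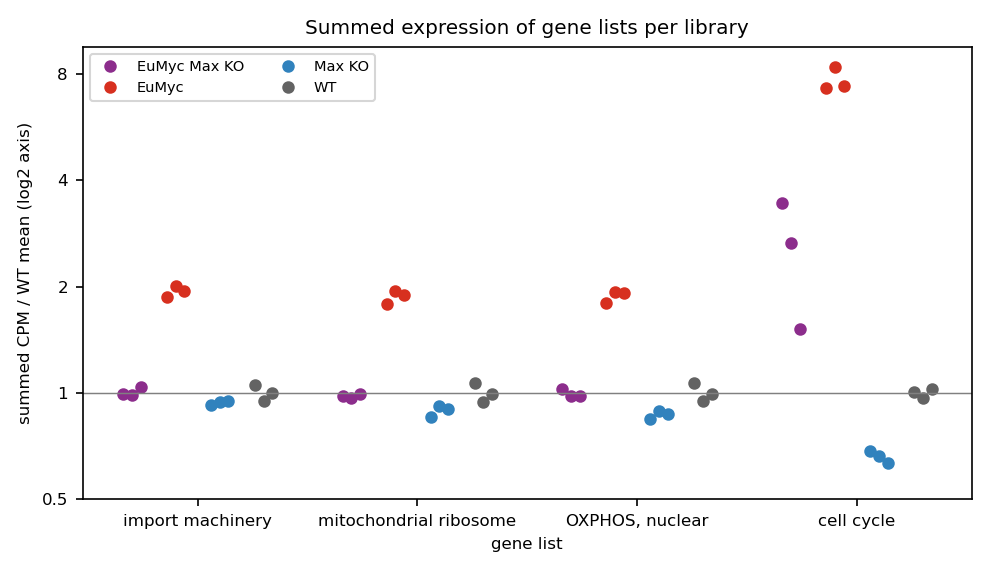
Summed CPM of 4 gene lists in each library divided by the mean of the 3 WT libraries (log2 axis). For import machinery, mitochondrial ribosome and oxidative phosphorylation (OXPHOS) the EuMyc points lie near 2 and the EuMyc Max KO points near 1, while EuMyc Max KO points of the cell cycle list remain above 1.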

How the data were processed

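RNA from B220+ splenocytes of 12 mice was sequenced. Each mouse has 1 deposited table of raw counts, whole numbers of reads assigned to a gene symbol and not normalized by the authors. The submitters' processing notes name bcl2fastq 1.8.4, TopHat2 2.1.0, HTSeq 0.6.1 and mm10. The sources used here do not give the annotation, the strand setting or the read length. The 5 summary rows that name no gene stayed out. Reads assigned to no feature made up 12.5% to 20.3% of the table totals by library, lowest in the 3 EuMyc libraries.

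The genotype label set the group, and the title gave the replicate number. The counts were analysed with R 4.3.3 and edgeR 4.0.16: filterByExpr kept 12878 of 24421 genes, TMM set library sizes, and 1 robust quasi-likelihood model (glmQLFit, glmQLFTest) covered the 12 libraries, leaving 8 residual degrees of freedom. Calls are Benjamini-Hochberg adjusted p under 0.05 over all tested genes. SEs are the log2 fold change divided by the square root of F, and 95% intervals use a t quantile of 2.306. CPM uses TMM-scaled library sizes. Pair ratios add 0.5 to each count and were tested by exact two-sided permutation. The model was checked on simulated counts. No 2 files were identical, and within groups every pair differed by more than sampling noise (chi-square per degree of freedom 7.46 to 65.6). Positions and exon lengths are from GENCODE vM21 (mm10) and promoters from RefSeq (GRCm38.p6).

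The members, gene lists and pairs were chosen with earlier results of these data known, so no list result is independent evidence of its direction. Values in every library are given for the 4 highest and 4 lowest members by fold change in EuMyc against WT, for those called in Max KO against WT, for the strongest in the other comparisons and for the paired genes, as a rule. Alternatives were RLE size factors, library totals, no low-count filter, DESeq2 1.42.0, a fit of only the groups compared, a replicate block and leaving out each of the 12 libraries. Of the B cell markers, 1 is not reported here and was left out of the summed markers.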

Additional observations from a re-analysis of the deposited data

Results flagged for a closer look

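The log2 change with Max knockout differed between cells with and without the EuMyc transgene in 28 members, as the interaction test of edgeR at an adjusted p under 0.05 found. Over all genes this test called 27.9% lower and 27.8% higher. The values that follow are differences on the log2 scale, EuMyc Max KO against EuMyc minus Max KO against WT, and all are negative. They share libraries with EuMyc against WT and are not independent of it. Among TOM genes and Tomm34 they were -1.58 for Tomm5, -1.09 for Tomm40, -0.89 for Tomm6, -0.88 for Tomm20, -0.66 for Tomm7, -0.66 for Tomm70a, -0.60 for Tomm22, -0.58 for Tomm40l and -0.30 for Tomm34. In the SAM group they were -1.10 for Mtx2, -0.80 for Samm50 and -0.68 for Mtx1. For small TIM chaperones and TIM22 they were -1.60 for Timm8a1, -1.06 for Timm9, -0.94 for Timm13, -0.88 for Timm10 and -0.75 for Timm22. The TIM23 genes had -1.34 for Timm50, -0.92 for Timm17a, -0.82 for Timm23, -0.72 for Timm21 and -0.41 for Timm17b. Motor genes had -1.03 for Hspa9, -1.03 for Pam16, -0.74 for Grpel1, -0.69 for Timm44 and -0.40 for Dnajc19, and Tomm6os had -1.20. Tomm34 was lost without WT 2, WT 3 or EuMyc 2, Dnajc19 without EuMyc 2, and Tomm6os without Max KO 3 or EuMyc Max KO 2. Myc itself differed by -1.21 in this test, and the part of its level was not tested.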

How the results depend on the processing

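No member's log2 fold change turned its direction after being called, over 18 alternatives (17 for the interaction). In EuMyc against WT 29 members were higher in every alternative except when 1 library was left out (28 to 29), and in EuMyc Max KO against EuMyc 29 to 30 were lower in all. The interaction kept 26 to 30 lower members when 1 library was left out. The Max KO against WT count of 4 lower members was 7 with RLE size factors and 7 with DESeq2, and 3 to 6 with 1 library left out. The EuMyc Max KO against Max KO counts of 4 higher and 1 lower were 2 and 0 when only the groups compared were fitted, and 2 to 4 and 0 to 1 with 1 library left out. For EuMyc Max KO against WT, 2 higher and 1 lower became 1 and 0 with only those groups fitted, and 0 to 3 and 0 to 2 with 1 library left out; the lower count was also 0 without the low-count filter. The cause was not tested. Library totals in place of TMM moved the median of all genes by -0.10 in EuMyc against WT and by 0.12 in EuMyc Max KO against EuMyc. Over all genes, the count higher in Max KO against WT ranged from 384 to 1260 and the count lower from 435 to 1305 with 1 library left out. With only the groups compared in the fit, 602 genes were higher and 150 lower in EuMyc Max KO against Max KO, in place of 1378 and 475, and 1459 were higher in EuMyc Max KO against WT, in place of 2190.

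The labels give no pairing of mice by replicate number. Deviations of same-numbered libraries correlated at -0.117 to 0.344 (median 0.00879, 18 pairs of libraries). Those of differently numbered libraries correlated at -0.262 to 0.173 (median -0.0258, 36 pairs). With 3 mice a group these values cannot show whether any mice were paired. With the number as a replicate block, 28 members were lower in the interaction, 3 lower in Max KO against WT, 29 lower in EuMyc Max KO against EuMyc, 3 higher in EuMyc Max KO against Max KO and 0 lower in EuMyc Max KO against WT. With 3 mice a group and 0.932 to 577 CPM per member, small changes may be missed.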

Other observations

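Mtx3, another metaxin, outside the member list, was the only 1 of the 26 import partners called in Max KO against WT, where it was higher by 0.65 ± 0.13 on the log2 scale (edgeR quasi-likelihood adjusted p = 0.00812). It was also higher in EuMyc Max KO against WT, at 0.41 ± 0.13, and was not called in EuMyc against WT, at 0.14. In the list of mitochondrial chaperones, proteases and scaffold genes, Phb2 (-0.36 ± 0.08), Hspd1 (-0.34 ± 0.08) and Phb (-0.19 ± 0.06) were lower in Max KO against WT. Their edgeR quasi-likelihood adjusted p were 0.00923, 0.0188 and 0.0467. In EuMyc Max KO against WT, 3 of the 13 genes of this list were higher and 2 lower, against 17.0% and 10.8% of all genes. Among them the protease genes Htra2 and Afg3l2 were higher (0.30 and 0.15) and Yme1l1 was lower (-0.17).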
